A study of Mus musculus with 8 samples.

Results

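Creatine kinases and other muscle energy buffers were followed as 8 genes, Ckm, Ckb, Ckmt2, Slc6a8, Ak1, Ampd1, Pygm and Mb, out of 18193 genes measured. They were chosen by name, and each was read through the probe sets annotated to it alone, which made 12 of the 45101 probe sets on the array. The brightest probe set of a gene, by mean log2 intensity over the 8 arrays, carries the values below, and the others are given at the end. RNA came from cultures of C2C12, an established line of mouse myoblasts whose cells fuse into multinucleated myotubes in low serum. An adenovirus was added after differentiation in 2% serum for 3 days, and RNA for Affymetrix whole-genome arrays was taken 3 days after that. The 4 groups held 2 arrays each, called biological duplicates by the submitters. They were GFP-tagged PGC-1α with 100 µM deferoxamine (DFO), GFP with 100 µM DFO, GFP-tagged PGC-1α without DFO, and GFP without DFO. All 4 groups carried an adenovirus and GFP, so no group was uninfected, and PGC-1α was supplied from the virus on top of the cells' own gene. PGC-1α is a transcriptional coactivator of genes of energy metabolism, and DFO is a chelator that binds ferric iron.

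Muscle keeps its ATP level steady during contraction with a set of fast reactions. Creatine kinase moves phosphate between creatine and ADP, the mitochondrial isoform loading creatine near the site of ATP synthesis and the cytosolic isoforms returning the phosphate to ATP at the contractile apparatus. Adenylate kinase recovers ATP from ADP, AMP deaminase removes the AMP that forms, glycogen phosphorylase releases glucose phosphate from glycogen, and myoglobin holds oxygen through a haem iron.

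The arrays had median intensities of 59.5 to 62.8, and across probe sets the duplicates correlated with r from 0.942 to 0.962 on the log2 scale. The transgene was seen with Ppargc1a, the gene of PGC-1α, at 7820 ± 155 intensity units with PGC-1α plus DFO and 57.4 ± 43.5 with GFP plus DFO, and at 7123 ± 123 with PGC-1α and 33.0 ± 6.11 with GFP (SD, n = 2). Actin 5' to 3' signal ratios, which drop as RNA degrades, were 0.753 and 0.811 with PGC-1α plus DFO, 0.868 and 0.859 with GFP plus DFO, and 0.897 to 0.921 on the 4 arrays without DFO. The part of RNA integrity in the changes with DFO was not tested. The comparisons share arrays, each group entering 2 or more of them. Changes below are log2 changes from limma ± SE, with p-values adjusted over all 18193 genes by the Benjamini-Hochberg method. A change was called at an adjusted p below 0.05, and "rose" and "fell" are used of called changes only.

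Ckm (probe set 1417614_at) encodes the cytosolic creatine kinase of skeletal muscle. It read 224 and 237 intensity units in the duplicates of PGC-1α plus DFO, 531 and 541 with GFP plus DFO, 3651 and 3710 with PGC-1α, and 5465 and 4969 with GFP. No 2 groups overlapped, and GFP alone was the highest group and PGC-1α plus DFO the lowest. With DFO Ckm fell by 4.00 ± 0.09 in PGC-1α myotubes (adjusted p = 6.42e-05) and by 3.28 ± 0.09 in GFP myotubes (adjusted p = 0.000139). With PGC-1α it fell by 1.22 ± 0.09 under DFO (adjusted p = 0.00166) and by 0.50 ± 0.09 without DFO (adjusted p = 0.0301). With both, 4.42% of the GFP level was left, so the muscle isoform was lower with either agent and lowest with both. In RNA from whole cultures, fewer cells of a type and less RNA per cell cannot be told apart. The small fall without DFO ended as a call when any 1 of the arrays of GFP, PGC-1α or GFP plus DFO was left out, where the change was -0.57 to -0.43 with adjusted p of 0.0665 to 0.149. It ended also after scaling the arrays to their spike-in RNAs (-0.29, adjusted p = 0.385). The fall with PGC-1α under DFO was -0.72 on that scale (adjusted p = 0.034), and with the dim second probe set averaged in it was -0.42 and not called (adjusted p = 0.0658).

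Ckmt2 (1428722_at) encodes the sarcomeric creatine kinase of mitochondria. It read 243 and 253 intensity units with PGC-1α plus DFO, 81.5 and 97.5 with GFP plus DFO, 4904 and 5045 with PGC-1α, and 683 and 622 with GFP. Again no groups overlapped, but the order differed from that of Ckm: PGC-1α was highest, then GFP, then PGC-1α plus DFO, then GFP plus DFO. Without DFO Ckmt2 rose 7.63-fold with PGC-1α (log2 change 2.93 ± 0.12, adjusted p = 0.00168). Under DFO it rose 2.78-fold (1.48 ± 0.12, adjusted p = 0.00206). With DFO it fell, with log2 changes of -4.33 ± 0.12 in PGC-1α myotubes (adjusted p = 7.53e-05) and -2.87 ± 0.12 in GFP myotubes (adjusted p = 0.000263). With both agents the level was 38.0% of that with GFP alone (-1.39 ± 0.12, adjusted p = 0.000844), so PGC-1α under DFO left Ckmt2 below its level in myotubes that had received neither.

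Ckb (1455106_a_at) encodes the brain-type cytosolic creatine kinase, which many non-muscle cells and immature muscle cells make. It read 875 and 813 intensity units with PGC-1α plus DFO, 433 and 469 with GFP plus DFO, 1328 and 1310 with PGC-1α, and 618 and 644 with GFP. Both PGC-1α groups lay above both GFP groups, and no groups overlapped. Ckb rose with PGC-1α by 0.90 ± 0.09 under DFO (adjusted p = 0.00365) and by 1.06 ± 0.09 without DFO (adjusted p = 0.00471). It fell with DFO by 0.65 ± 0.09 in PGC-1α myotubes (adjusted p = 0.00593) and by 0.49 ± 0.09 in GFP myotubes (adjusted p = 0.0159). Where Ckm was 4.42% of its GFP level with both agents, Ckb was 134% (0.42 ± 0.09, adjusted p = 0.0199). The fall in GFP myotubes lost its call without any 1 array of GFP plus DFO or GFP (-0.54 to -0.43, adjusted p of 0.0587 to 0.105), and after spike-in scaling (-0.42, adjusted p = 0.158). The fall in PGC-1α myotubes lost it after spike-in scaling (-0.29, adjusted p = 0.244). The rise with both lost it without PGC-1α plus DFO replicate 1, GFP replicate 1 or GFP replicate 2 (0.37 to 0.45, adjusted p of 0.058 to 0.0875).

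**Figure D1:**
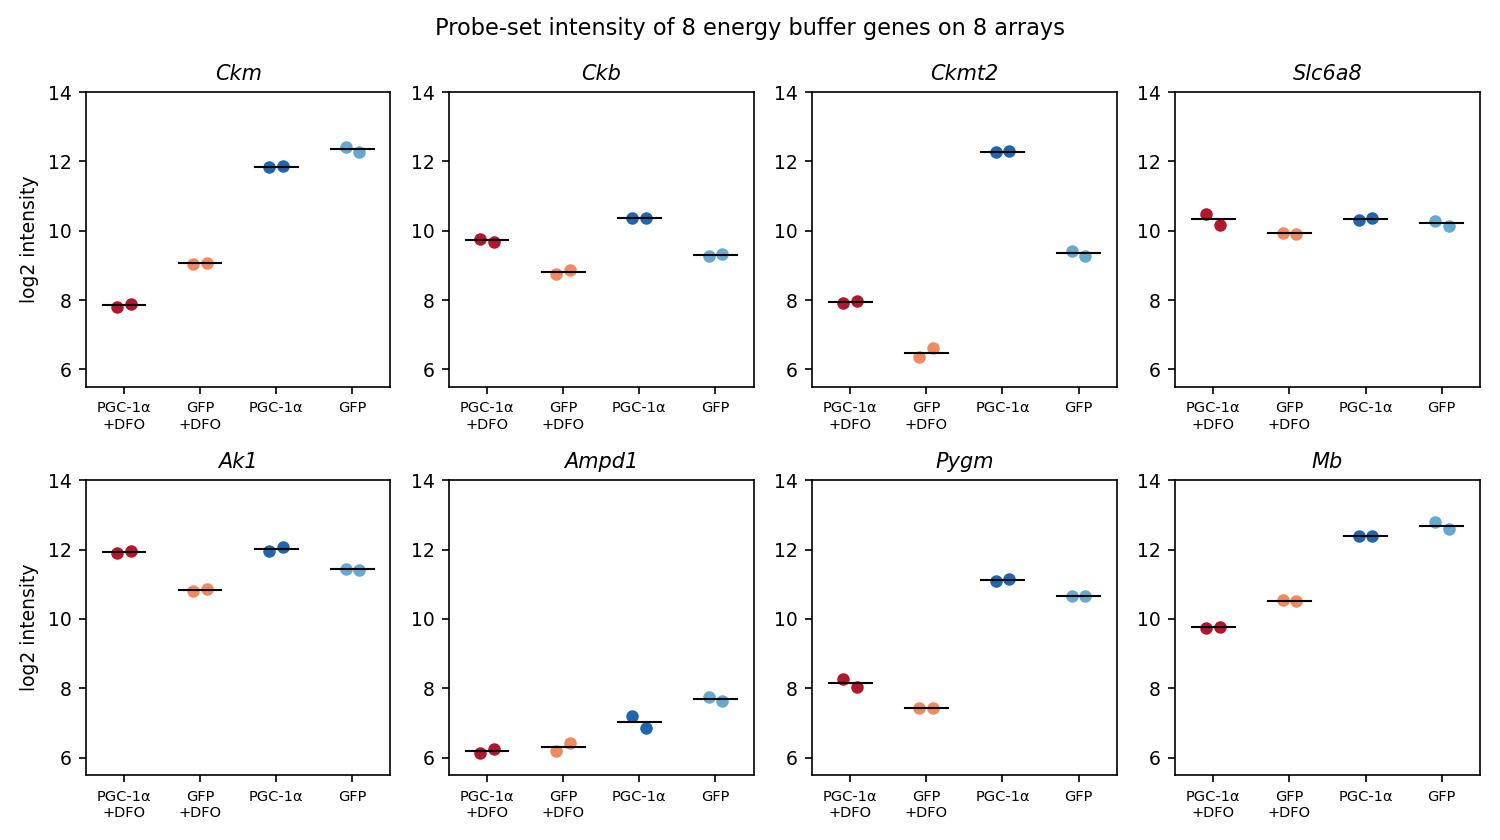
Log2 intensity of the brightest probe set of each gene (vertical axis) on the 2 arrays of each group (points, with the group mean as a line); groups run from PGC-1α plus DFO on the left to GFP on the right. Ckm and Mb step up from left to right, Ckmt2 and Pygm peak with PGC-1α, Ckb and Ak1 are higher in each PGC-1α group than in its GFP group, and Slc6a8 is nearly level.

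The 250 bases before the start sites of the 3 creatine kinase genes are shown because the 3 genes had 3 different orders of the groups, and that of Pygm because it had the same order as Ckmt2. They come from RefSeq on the GRCm38.p6 build, written 5' to 3' on the gene's strand. Capitals mark matches on either strand to the E-box CANNTG bound by myogenic factors, the core AAGGTCA of the element bound by ERR receptors, the hypoxia response cores ACGTG and GCGTG, and the MEF2 site. Ckm lies at chr7:19410844-19411093 on the + strand, Ckb at chr12:111672339-111672588 on the - strand, Ckmt2 at chr13:91876886-91877135 on the - strand and Pygm at chr19:6384158-6384407 on the + strand.
Ckm: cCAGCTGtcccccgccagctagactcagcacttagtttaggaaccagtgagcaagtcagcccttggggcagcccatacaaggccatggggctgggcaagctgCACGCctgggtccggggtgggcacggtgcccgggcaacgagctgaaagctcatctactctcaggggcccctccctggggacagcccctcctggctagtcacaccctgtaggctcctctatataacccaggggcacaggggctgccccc
Ckb: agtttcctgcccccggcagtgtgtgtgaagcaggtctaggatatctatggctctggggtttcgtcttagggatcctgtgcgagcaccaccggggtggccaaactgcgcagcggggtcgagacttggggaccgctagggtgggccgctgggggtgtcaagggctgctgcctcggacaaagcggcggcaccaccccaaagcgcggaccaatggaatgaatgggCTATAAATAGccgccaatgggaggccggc
Ckmt2: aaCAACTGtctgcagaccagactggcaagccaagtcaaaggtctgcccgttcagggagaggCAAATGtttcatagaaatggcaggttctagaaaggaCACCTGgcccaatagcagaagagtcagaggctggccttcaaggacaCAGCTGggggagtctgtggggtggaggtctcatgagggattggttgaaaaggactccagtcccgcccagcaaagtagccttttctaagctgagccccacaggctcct
Pygm: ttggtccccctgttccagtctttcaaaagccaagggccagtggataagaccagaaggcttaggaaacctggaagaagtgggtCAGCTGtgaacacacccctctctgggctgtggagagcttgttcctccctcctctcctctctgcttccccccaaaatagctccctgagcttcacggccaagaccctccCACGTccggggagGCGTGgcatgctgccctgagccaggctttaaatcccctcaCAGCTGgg
Ckm held 1 E-box, at -249 to -244 from the start, and GCGTG on the - strand. Ckb held no E-box and 1 MEF2 match, at -29 to -20, which also has the letters of a TATA box. Ckmt2 held 4 E-boxes and Pygm 2, and Pygm also held ACGTG on the - strand and GCGTG on the + strand. No matches overlapped each other. AAGGTCA was in none of these 4 windows. Among the windows not printed, 1 of the 4 of Ak1 held it, on the + strand at -90 to -84, and the 3 of Mb did not. Of all 32851 windows of this length in the table, 66.2% held an E-box, 4.08% AAGGTCA, 16.6% ACGTG, 28.2% GCGTG and 2.92% a MEF2 site. A match is a description of letters and not of a bound site. The table held windows for 6 of the 8 genes, with Slc6a8 and Ampd1 not among them.

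Slc6a8 encodes the creatine transporter of the plasma membrane, which brings in the creatine that the kinases use. Its brightest probe set (1417116_at) read 1432 and 1153 intensity units with PGC-1α plus DFO, 985 and 962 with GFP plus DFO, 1269 and 1314 with PGC-1α, and 1234 and 1135 with GFP. GFP plus DFO was the lowest group and overlapped no other, while PGC-1α plus DFO overlapped both groups without DFO. No comparison was called, with adjusted p from 0.0931 to 0.98 over the 6 of them. The change with PGC-1α was 0.40 ± 0.13 under DFO (95% interval 0.08 to 0.72, adjusted p = 0.0931) and 0.13 ± 0.13 without DFO (-0.20 to 0.45, adjusted p = 0.584). With DFO it was -0.01 ± 0.13 in PGC-1α myotubes (-0.33 to 0.32, adjusted p = 0.98) and -0.28 ± 0.13 in GFP myotubes (-0.60 to 0.04, adjusted p = 0.188). The change with PGC-1α under DFO was called on the spike-in scale (0.90, adjusted p = 0.0153), with quantile normalization (0.50, adjusted p = 0.0248), with both probe sets averaged (0.52, adjusted p = 0.0498), with trend and robust options, among genes above the median level and without PGC-1α plus DFO replicate 2 (0.56, adjusted p = 0.0421). That with both agents against neither was called on the spike-in scale (0.68, adjusted p = 0.0172). The intervals reach 0.72 with PGC-1α and -0.60 with DFO, so a constant level is not shown.

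Ak1 (1422184_a_at) encodes the main cytosolic adenylate kinase of muscle. It read 3851 and 3946 intensity units with PGC-1α plus DFO, 1777 and 1873 with GFP plus DFO, 3970 and 4273 with PGC-1α, and 2802 and 2724 with GFP. As for Ckb, both PGC-1α groups lay above both GFP groups. Ak1 rose with PGC-1α 2.14-fold under DFO (1.10 ± 0.08, adjusted p = 0.00191) and 1.49-fold without DFO (0.58 ± 0.08, adjusted p = 0.0189). With DFO it fell in GFP myotubes by 0.60 ± 0.08 (adjusted p = 0.00673), while in PGC-1α myotubes the change was -0.08 ± 0.08 (95% interval -0.29 to 0.13, adjusted p = 0.56). Its level with both agents was 141% of that with neither (0.50 ± 0.08, adjusted p = 0.00914). The rise without DFO ended as a call when any 1 array of GFP plus DFO, PGC-1α or GFP was left out (0.52 to 0.63, adjusted p of 0.0626 to 0.0933), and after spike-in scaling (0.79, adjusted p = 0.0669). The fall in GFP myotubes ended without GFP plus DFO replicate 1 (-0.56, adjusted p = 0.0575) and after spike-in scaling (-0.54, adjusted p = 0.0968). With its dim second probe set averaged in, no change of Ak1 was called, and that with PGC-1α under DFO was 0.20 (adjusted p = 0.853).

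Ampd1 (1434722_at) encodes the AMP deaminase isoform of skeletal muscle. It was the dimmest of the 8 genes, with a mean below the median of all genes. It read 70.8 and 75.9 intensity units with PGC-1α plus DFO, 73.6 and 85.7 with GFP plus DFO, 146 and 117 with PGC-1α, and 213 and 197 with GFP. The DFO groups overlapped each other and lay below both groups without DFO. Ampd1 fell with DFO by 0.83 ± 0.15 in PGC-1α myotubes (adjusted p = 0.0135) and by 1.37 ± 0.15 in GFP myotubes (adjusted p = 0.00288). With PGC-1α its change was -0.12 ± 0.15 under DFO (adjusted p = 0.661) and -0.65 ± 0.15 without DFO (adjusted p = 0.0554), neither called. With both agents it was 35.7% of the GFP level (-1.48 ± 0.15, adjusted p = 0.00144). The fall in PGC-1α myotubes lost its call without PGC-1α plus DFO replicate 1 or PGC-1α replicate 1 (-0.78 to -0.67, adjusted p of 0.0564 to 0.0582), and after spike-in scaling (-0.48, adjusted p = 0.137). Both DFO groups were near the median of all probe sets, where signal over background limits how far a fall can be followed.

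Pygm (1448602_at) encodes the muscle isoform of glycogen phosphorylase, which frees glucose phosphate from glycogen. It read 310 and 264 intensity units with PGC-1α plus DFO, 174 and 174 with GFP plus DFO, 2171 and 2285 with PGC-1α, and 1610 and 1632 with GFP. The order of the groups was that of Ckmt2, and none overlapped. Pygm fell with DFO, by log2 changes of -2.96 ± 0.10 in PGC-1α myotubes (adjusted p = 0.00011) and -3.22 ± 0.10 in GFP myotubes (adjusted p = 0.000161). With PGC-1α it rose 1.65-fold under DFO (0.72 ± 0.10, adjusted p = 0.0105), and without DFO the change was 0.46 ± 0.10 (adjusted p = 0.0564). The rise under DFO ended as a call without GFP plus DFO replicate 1 or 2 (0.72, adjusted p of 0.0744 to 0.0788). With both agents 17.6% of the GFP level was left (-2.50 ± 0.10, adjusted p = 0.000115).

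Mb (1451203_at) encodes myoglobin, the oxygen-binding haem protein of muscle. It read 862 and 867 intensity units with PGC-1α plus DFO, 1492 and 1454 with GFP plus DFO, 5346 and 5356 with PGC-1α, and 7053 and 6217 with GFP. The groups stood in the order found for Ckm, with no overlap. Mb fell with DFO, by log2 changes of -2.63 ± 0.09 in PGC-1α myotubes (adjusted p = 0.00011) and -2.17 ± 0.09 in GFP myotubes (adjusted p = 0.000276). With PGC-1α it fell by 0.77 ± 0.09 under DFO (adjusted p = 0.00609), and without DFO the change was -0.31 ± 0.09 (adjusted p = 0.105). The fall with PGC-1α under DFO ended as a call without GFP plus DFO replicate 1 or 2 (-0.79 to -0.75, adjusted p of 0.0505 to 0.0597), after spike-in scaling (-0.27, adjusted p = 0.221) and with the dim second probe set averaged in (-0.77, adjusted p = 0.14). With both agents 13.1% of the GFP level was left (-2.94 ± 0.09, adjusted p = 6.3e-05).

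Set side by side, PGC-1α without DFO gave called changes in 4 of the 8 genes, Ckmt2, Ckb and Ak1 higher and Ckm lower. Over all genes limma called 9.73%, with 4.96% higher and 4.77% lower. All of the 8 genes but Ampd1 were brighter than the median gene. The median SD of duplicates by group was 0.06 to 0.11 for genes above that level and 0.21 to 0.31 for the others. Shares over all genes, here and below, are thus not matched to the brightness of the 8 genes. Testing only genes above the median level called more genes for this comparison and for the interaction, as given in the closing section. The groups did not overlap for any of the 8 genes, as for 57% of all genes, so non-overlap alone says little. The median change was 0.29 over the 8 genes and -0.08 over all genes. Under DFO the same construct gave 6 calls, with Ckmt2, Ak1, Ckb and Pygm higher and Ckm and Mb lower. The share of all genes called there was 18.9%, with 6.93% higher and 12% lower, and the medians were 0.56 and -0.05. The groups did not overlap for 7 of the 8 genes, all but Ampd1, and for 59.8% of all genes. Among the markers of differentiated myotubes 5 of 8 fell and 1, Actn2, rose with PGC-1α under DFO (median -0.82), and without DFO 1 fell and none rose (median -0.22). The part of these markers in the falls of Ckm and Mb was not tested.

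**Figure D2:**
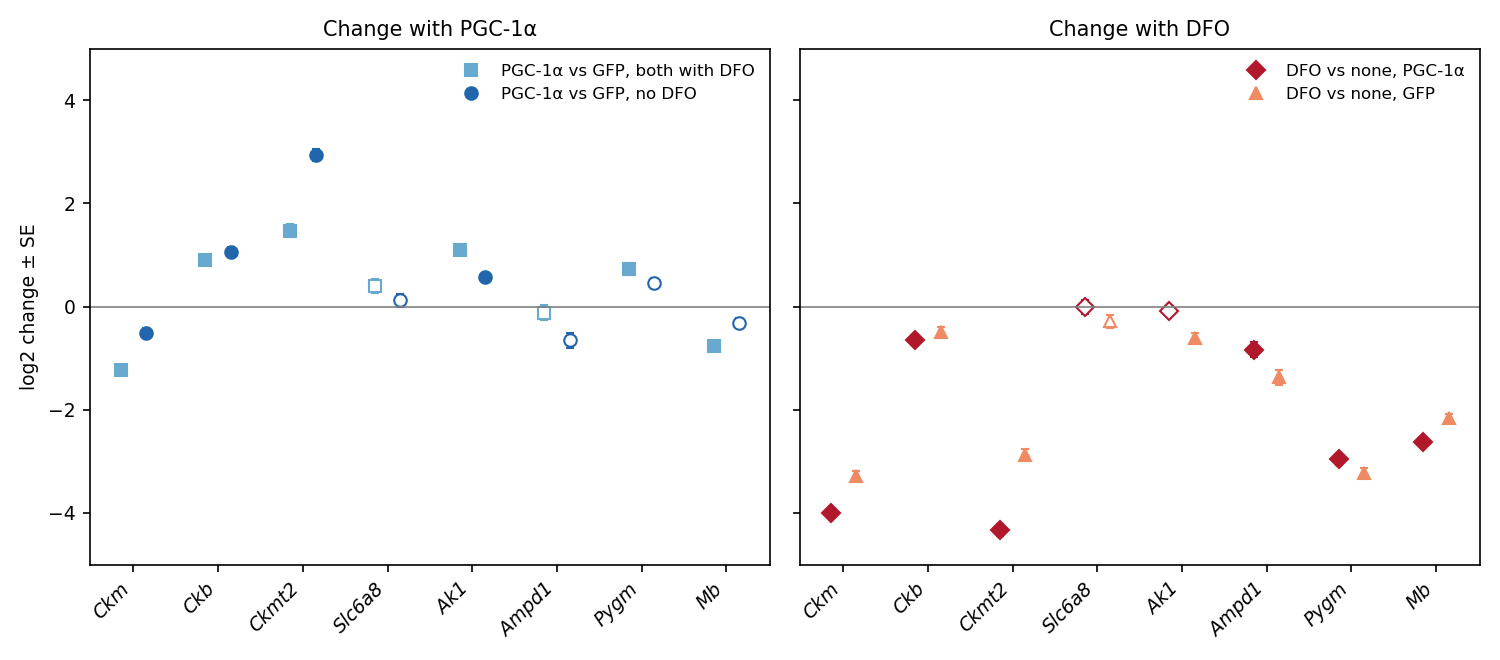
Log2 change ± SE of each gene (vertical axis) with PGC-1α against GFP (left) and with DFO against none (right), filled where called at an adjusted p below 0.05 and open where not; most SE bars are shorter than the symbols. On the right every filled symbol is below 0, from -0.49 for Ckb to -4.33 for Ckmt2, and on the left Ckm and Ckmt2 lie on opposite sides of 0.

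With DFO every called change among the 8 genes was a fall. In PGC-1α myotubes 6 fell, all but Slc6a8 and Ak1, where limma called 25.6% of all genes, 11.4% as higher and 14.2% as lower. In GFP myotubes 7 fell, all but Slc6a8, where it called 24.2% of all genes, 11.8% as higher and 12.5% as lower. The groups with and without DFO did not overlap for 7 of the 8 genes in PGC-1α myotubes, against 60.7% of all genes, and for all 8 in GFP myotubes, against 63.9%. The median change of the 8 genes was -1.73 in PGC-1α myotubes and -1.77 in GFP myotubes, against 0.01 and -0.02 over all genes. The sizes fell into 2 ranges: Ckm, Ckmt2, Pygm and Mb had changes of -4.33 to -2.17, and Ckb, Ak1 and Ampd1 of -1.37 to -0.08. Markers of differentiated myotubes were lower too: 7 of 8 fell with DFO in PGC-1α myotubes and 6 of 8 in GFP myotubes. Their summed intensity was 14664 to 15935 with PGC-1α plus DFO, 22022 to 22495 with GFP plus DFO, 41867 to 42229 with PGC-1α, and 48238 to 50158 with GFP. Myog, a transcription factor of muscle differentiation, averaged 67.1 intensity units with PGC-1α plus DFO, 157 with GFP plus DFO, 5270 with PGC-1α and 5277 with GFP, while Des, the muscle intermediate filament desmin, had no called change. None of the 8 markers was at 0. Of 7 markers of undifferentiated myoblasts or reserve cells 2 rose and 2 fell with DFO in PGC-1α myotubes and 3 rose and 3 fell in GFP myotubes, and their summed intensity was 1470 to 1796 with PGC-1α plus DFO, 1576 to 1579 with GFP plus DFO, 2862 to 2974 with PGC-1α and 2944 to 3006 with GFP. The part of these markers in the falls of the 8 genes was not tested. Markers of dividing cells, adipocytes and osteoblasts, with 2, 3 and 2 measured genes, summed to at most 229 intensity units on any array, and with either agent alone they had adjusted p of 0.0737 or above. With both agents against neither 1 of the 2 osteoblast markers was called lower, and no marker of dividing cells or adipocytes was called.

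Both agents together against neither gave 7 calls, Ckb and Ak1 higher and Ckm, Ckmt2, Ampd1, Pygm and Mb lower, where limma called 31.8% of all genes, 13.5% higher and 18.3% lower. The groups did not overlap for 7 of the 8 genes, all but Slc6a8, and for 62.8% of all genes. The median was -1.44 over the 8 genes and -0.01 over all genes. The range ran from -4.50 ± 0.09 for Ckm (adjusted p = 3.72e-05) to 0.50 for Ak1. The 3 creatine kinases changed unequally. With both agents Ckm read 230 ± 9.10, Ckb 844 ± 44.0 and Ckmt2 248 ± 6.85 intensity units, and without either agent Ckm read 5217 ± 351, Ckb 631 ± 18.6 and Ckmt2 653 ± 43.0 (SD, n = 2). Probe sets differ in brightness for reasons of their sequence, so these intensities do not rank the isoforms against each other, and only the change of each is compared.

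The interaction asks whether the change with PGC-1α under DFO differed from that without DFO. It was called for 1 of the 8 genes, Ckmt2, at -1.46 ± 0.17 (95% interval -1.88 to -1.04), with limma's adjusted p of 0.04998 just inside the threshold. Over all genes 0.555% were called, 0.231% as higher and 0.324% as lower. The rise of Ckmt2 with PGC-1α was thus 2.74-fold smaller under DFO than without it. That call ended without any 1 of the 8 arrays (-1.59 to -1.33, adjusted p of 0.0755 to 0.186), and after spike-in scaling (-1.16, adjusted p = 0.196), though the direction held in each. With GFP plus DFO Ckmt2 read 81.5 and 97.5 intensity units, near the medians of those arrays, 62.5 and 62.8. There signal over background limits how far a fall can be followed, and the part of this limit in the interaction was not tested. Ckm had -0.72 ± 0.13 (adjusted p = 0.0854), Mb -0.46 ± 0.13 (0.181), Ak1 0.52 ± 0.12 (0.134) and Ampd1 0.54 ± 0.21 (0.279). Pygm, Slc6a8 and Ckb had 0.26, 0.27 and -0.16, with adjusted p of 0.434, 0.499 and 0.576. So for 7 of the 8 genes no difference of the PGC-1α change between the DFO and DFO-free cultures passed the test.

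**Figure D3:**
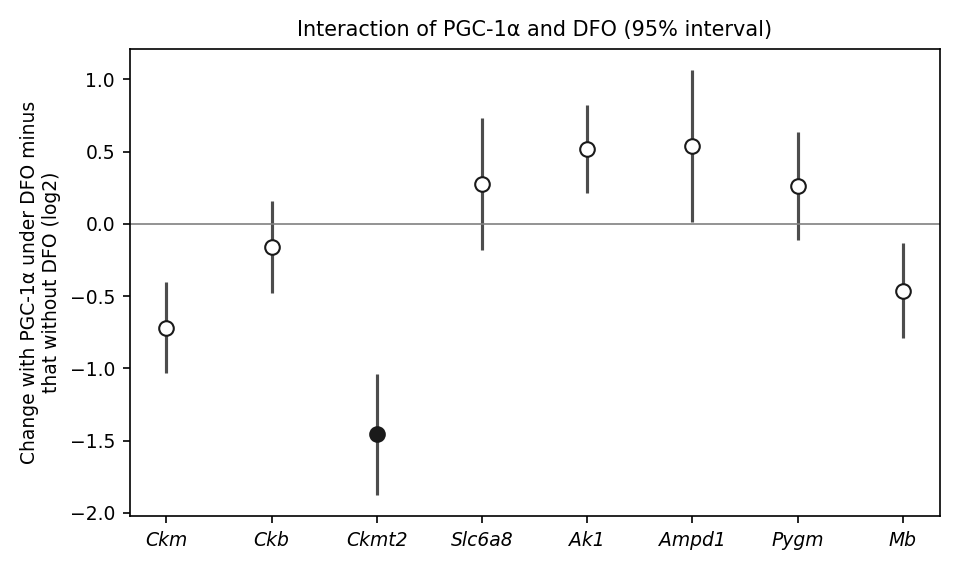
Interaction of PGC-1α and DFO for each gene, the log2 change with PGC-1α under DFO minus that without DFO (vertical axis), with its 95% interval as a line; the filled point passed an adjusted p of 0.05. Ckmt2 lies lowest at -1.46, and the intervals of Ckb, Slc6a8 and Pygm include 0.

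Other genes of creatine metabolism that were measured are Gatm and Gamt, the enzymes that make creatine in sequence, and Ckmt1, the widespread mitochondrial creatine kinase. With DFO 2 of the 3 fell in PGC-1α myotubes, where 14.2% of all genes were called lower, and the same number in GFP myotubes, where 12.5% were, while Ckmt1 had 0.44 and 0.30 (adjusted p = 0.0525 and 0.151). Gatm fell by 2.79 ± 0.09 in PGC-1α myotubes (adjusted p = 9.86e-05) and 1.56 ± 0.09 in GFP myotubes (adjusted p = 0.000495). Gamt averaged 119 ± 13.7 intensity units with PGC-1α plus DFO and 203 ± 18.7 with GFP plus DFO, against 358 ± 10.4 with PGC-1α and 706 ± 17.3 with GFP (SD, n = 2). Its falls with DFO were log2 changes of -1.60 ± 0.12 in PGC-1α myotubes and -1.80 ± 0.12 in GFP myotubes (adjusted p = 0.000842 and 0.000703). With PGC-1α under DFO Gatm fell by 1.33 ± 0.09 and Gamt by 0.77 ± 0.12, and Ckmt1 rose by 0.61 ± 0.12 (adjusted p = 0.00146, 0.013 and 0.0267). With GFP plus DFO Ckmt1 read 64.8 and 73.8 intensity units, near the array medians of 62.5 and 62.8. It read 60.1 and 52.6 with GFP, below the array medians, so signal over background limits its changes. Its call ended with trend and robust options, the replicate block, probe sets averaged by gene and only the groups compared. Without DFO only Gamt was called with PGC-1α among the 3 genes, with -0.98 ± 0.12 (adjusted p = 0.0121). Gatm with PGC-1α alone was at 93.4% of its GFP level. For the interaction 1 of the 3, Gatm, was called lower, where 0.324% of all genes were. That call was not followed through the alternatives. Both Gamt calls with PGC-1α ended without some arrays. Under DFO these were GFP plus DFO replicate 1 or 2 (-0.87 to -0.68, adjusted p of 0.053 to 0.0901), and without DFO any array of PGC-1α or GFP (-1.01 to -0.95, adjusted p of 0.056 to 0.0855). The call under DFO ended also after spike-in scaling (-0.27, adjusted p = 0.186). The Ckmt1 call ended without PGC-1α plus DFO replicate 2 or any array of GFP plus DFO or PGC-1α (0.51 to 0.70, adjusted p of 0.0579 to 0.15).

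Of 16 other adenylate kinases and genes of AMP and adenosine handling 13 were measured. With DFO 4 rose and 5 fell in PGC-1α myotubes, where 25.6% of all genes were called, and 5 rose and 3 fell in GFP myotubes, where 24.2% were. Ak4, an adenylate kinase of the mitochondrial matrix, rose most in both, by 3.24 ± 0.10 and 3.97 ± 0.10 (adjusted p = 8.23e-05 and 0.000135). It averaged 1372 ± 128 intensity units with PGC-1α plus DFO and 2059 ± 20.5 with GFP plus DFO, against 145 ± 4.94 with PGC-1α and 131 ± 1.24 with GFP (SD, n = 2). Ampd3, the AMP deaminase isoform of red cells and other tissues, rose with DFO by 1.68 ± 0.10 in PGC-1α myotubes (adjusted p = 0.000434), where the muscle isoform Ampd1 fell. In GFP myotubes, where Ampd1 fell too, Ampd3 averaged 1125 ± 31.4 intensity units with DFO against 558 ± 20.3 without it (SD, n = 2). Adssl1, the muscle adenylosuccinate synthase of the purine nucleotide cycle, fell by 1.63 ± 0.11 and 1.79 ± 0.11 (adjusted p = 0.000585 and 0.000542). With PGC-1α 2 rose and 4 fell under DFO (18.9% of all genes called), and 4 rose and 1 fell without DFO (9.73% called), among them Ampd3 at -1.23 ± 0.10 (adjusted p = 0.00443). Adsl, adenylosuccinate lyase, rose by 1.27 ± 0.11 under DFO (adjusted p = 0.00259). Its rise without DFO, 0.90 ± 0.11, ended as a call without any array of PGC-1α or GFP (0.86 to 0.95, adjusted p of 0.0521 to 0.0848). Adk, adenosine kinase, fell with DFO in PGC-1α myotubes by 1.54 ± 0.14 (adjusted p = 0.00147), and Adsl fell in GFP myotubes by 1.01 ± 0.11 (adjusted p = 0.00305). The rises of Adk by 0.96 ± 0.14 and of Ak3, the adenylate kinase that uses GTP, by 0.94 ± 0.13 with PGC-1α without DFO (adjusted p = 0.0183 and 0.0162) ended without any array of GFP plus DFO, PGC-1α or GFP (adjusted p up to 0.104 and 0.0975). Under DFO Adssl1 rose with PGC-1α by 0.82 ± 0.11 (adjusted p = 0.00771). The falls there of Ampd2 by 1.07 ± 0.17 and Ak4 by 0.59 ± 0.10 (adjusted p = 0.014 and 0.015) ended without GFP plus DFO replicate 1 or 2 (adjusted p up to 0.0954 and 0.0967). Both ended after spike-in scaling too, where Ampd2 had -0.57 and Ak4 -0.09 (adjusted p = 0.0573 and 0.703). The rise of Nt5e with DFO in GFP myotubes, 1.47 ± 0.34 (adjusted p = 0.0309), started below the array medians in GFP, at 56.8 intensity units, and ended without any array of GFP plus DFO, PGC-1α or GFP (1.22 to 1.73, adjusted p of 0.0585 to 0.15).

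Of 17 other glycogen genes 16 were measured, and with DFO they went both ways: 6 rose and 5 fell in PGC-1α myotubes, and as many in GFP myotubes. Limma called 25.6% and 24.2% of all genes in these comparisons. Gbe1, the branching enzyme, averaged 2087 ± 85.6 intensity units with PGC-1α plus DFO and 2349 ± 2.66 with GFP plus DFO, against 524 ± 36.0 with PGC-1α and 300.3 ± 26.0 with GFP (SD, n = 2). It rose by 1.99 ± 0.10 and 2.97 ± 0.10 (adjusted p = 0.000306 and 0.0002). Pgm2 rose by 1.93 ± 0.12 in PGC-1α myotubes (adjusted p = 0.000536) and Pgm1 by 1.49 ± 0.09 in GFP myotubes (adjusted p = 0.000553), both phosphoglucomutase symbols of the array's annotation. The means of both were higher with DFO in the other myotubes too. Pgm2 averaged 297 intensity units with GFP plus DFO against 135 with GFP, and Pgm1 3216 with PGC-1α plus DFO against 1449 with PGC-1α. The Pgm1 call in GFP myotubes ended with the mean of its probe sets (adjusted p = 0.14). Gyg, glycogenin, which primes glycogen chains and is given here after its values were seen, fell by 1.86 ± 0.10 in PGC-1α myotubes and 1.07 ± 0.10 in GFP myotubes (adjusted p = 0.000298 and 0.00162). The falls also included subunits of phosphorylase kinase, which switches glycogen phosphorylase on. Phkb, its beta subunit, fell by 2.57 ± 0.21 in PGC-1α myotubes and 1.49 ± 0.21 in GFP myotubes (adjusted p = 0.00103 and 0.00619). With PGC-1α 1 rose and 2 fell under DFO, and 2 rose without DFO, which was 18.8% and 12.5% of the 16 genes, near the 18.9% and 9.73% of all genes. Pgm2 rose by 1.75 ± 0.12 under DFO (adjusted p = 0.00158), and its rise of 0.96 ± 0.12 without DFO ended as a call without PGC-1α replicate 1 or 2 or GFP replicate 1 (0.84 to 1.02, adjusted p of 0.0624 to 0.0903). Phkb fell with PGC-1α under DFO by 1.63 ± 0.21 (adjusted p = 0.00704), a call that ended without GFP plus DFO replicate 1 (-1.57, adjusted p = 0.0609). Gyg fell there by 0.85 ± 0.10 (adjusted p = 0.00504), which ended without the same array (-0.83, adjusted p = 0.052) and after spike-in scaling (-0.35, adjusted p = 0.114). The rise of Gbe1 with PGC-1α without DFO, 0.80 ± 0.10 (adjusted p = 0.0135), ended without any array of GFP plus DFO or PGC-1α or without GFP replicate 2 (0.72 to 0.87, adjusted p of 0.0527 to 0.0725). Phka1, the muscle alpha subunit of phosphorylase kinase, read 108 and 49.3 intensity units with PGC-1α plus DFO, where the array medians were 62.35 and 61.5. These duplicates differed, 1 of them below its array median, which limits how far the size of a fall can be read. Phka1 fell with DFO by 1.97 ± 0.36 in PGC-1α myotubes and 1.49 ± 0.36 in GFP myotubes (adjusted p = 0.0143 and 0.0353). The first ended without PGC-1α replicate 1 or 2 (adjusted p up to 0.0712), and the second without any array of GFP plus DFO, PGC-1α or GFP (adjusted p up to 0.149).

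**Figure D4:**
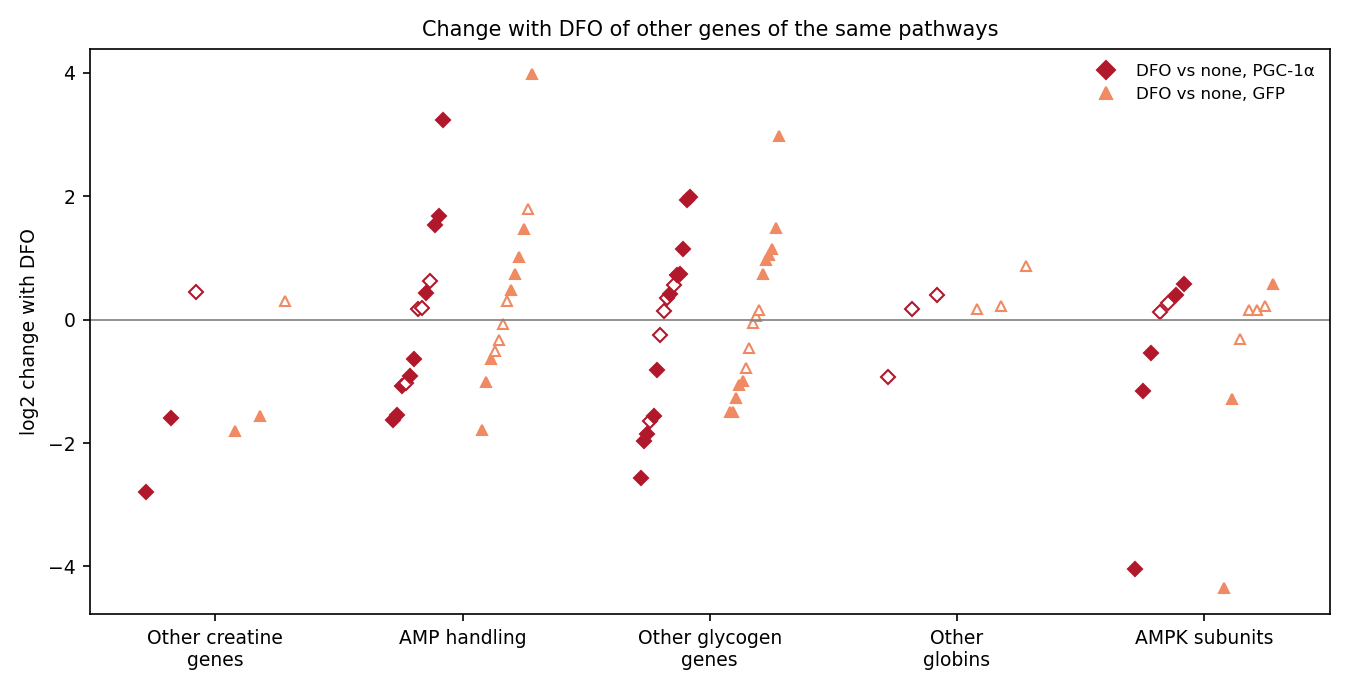
Log2 change with DFO (vertical axis) of the other measured genes of each pathway list, diamonds for PGC-1α myotubes and triangles for GFP myotubes, filled where called at an adjusted p below 0.05. Ak4 is the highest point of AMP handling at 3.24 and 3.97, Gbe1 leads the glycogen genes in GFP myotubes at 2.97, and Prkag3, with a signal below the array medians under DFO, is the lowest AMPK subunit.

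AMP-activated protein kinase, which senses AMP, was measured in all 7 subunit genes. With DFO 2 rose and 3 fell in PGC-1α myotubes, where 25.6% of all genes were called, and 1 rose and 2 fell in GFP myotubes, where 24.2% were. Prkag3, the regulatory subunit typical of fast muscle, averaged 12.6 ± 0.36 intensity units with PGC-1α plus DFO and 28.9 ± 12 with GFP plus DFO, against 209 ± 37.6 with PGC-1α and 566 ± 43.8 with GFP (SD, n = 2). Its signal with DFO was below the array medians, so its falls are given as bounds, down to those medians: at least 3.35-fold lower in PGC-1α myotubes and at least 9.02-fold lower in GFP myotubes. The falls were called by limma on the readings below those medians (adjusted p = 0.000845 and 0.000799), and the bounds themselves were not tested. Prkaa2, the catalytic subunit that prevails in muscle, fell by 1.15 ± 0.10 and 1.28 ± 0.10 (adjusted p = 0.00125 and 0.00107). With PGC-1α 1 rose and 1 fell under DFO (18.9% of all genes called), and 1 rose and 2 fell without DFO (9.73% called), and each of these 5 calls ended without at least 1 array. Under DFO Prkaa2 had 0.62 ± 0.10 (adjusted p = 0.0136), which ended without GFP plus DFO replicate 1 or 2 (0.62 to 0.63, adjusted p of 0.0863 to 0.0948). Prkaa1, the other catalytic subunit, had -0.89 ± 0.12 there (adjusted p = 0.00866), which ended without GFP plus DFO replicate 1 (-0.81, adjusted p = 0.0698) and after spike-in scaling (-0.39, adjusted p = 0.0778). Without DFO Prkag3 had -1.45 ± 0.30, Prkab1 -0.61 ± 0.10 and Prkaa2 0.50 ± 0.10 (adjusted p = 0.0468, 0.0277 and 0.0408), and all 3 calls ended without any array of PGC-1α or GFP and without some arrays with DFO (adjusted p up to 0.157, 0.121 and 0.155). After spike-in scaling they ended as well, at -1.24, -0.40 and 0.71 (adjusted p = 0.0507, 0.193 and 0.0669). Smaller calls with DFO also ended. Prkab1, 0.58 ± 0.10 in PGC-1α myotubes (adjusted p = 0.0139), ended without PGC-1α plus DFO replicate 1 or PGC-1α replicate 2 (adjusted p up to 0.0552). Prkaa1, -0.53 ± 0.12 there (adjusted p = 0.0294), ended without PGC-1α plus DFO replicate 2 or any array of GFP plus DFO or PGC-1α (adjusted p up to 0.129) and after spike-in scaling (-0.18, adjusted p = 0.328). Prkag2, 0.58 ± 0.14 in GFP myotubes (adjusted p = 0.0366), ended without any array of GFP plus DFO, PGC-1α or GFP (adjusted p up to 0.158). The 3 other globins measured, Cygb, Ngb and Hba-a1, had adjusted p of 0.322 or above in all 6 comparisons. Cygb and Hba-a1 averaged at most 38.2 and 35.3 intensity units in any group, below the array medians, so an absence of change is not shown for them.

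Likeness over the 8 arrays was searched among 8850 genes above the median level. The 8 genes themselves and symbols of predicted transcripts and expressed sequences were left out. Most like Ckm among those searched were Atp2a1, the calcium pump of fast muscle (Pearson r of log2 intensity 0.9998), Mybph, a myosin-binding protein (0.9994), and Jph2, a junction protein of the calcium release unit (0.9993). Those most like Ckmt2 were Slc25a33, a mitochondrial pyrimidine nucleotide carrier (0.994), Ndrg4 (0.994) and Mtif2, a mitochondrial translation initiation factor (0.993). Among the 8 genes, Mb had r of 0.9997 with Ckm, Ampd1 0.930 with Ckm and Ak1 0.925 with Ckb. Pygm had nearly the same r with Ckmt2 (0.913), Mb (0.907) and Ckm (0.903). These r describe 8 arrays that fall into 4 groups, so they reflect the group means. The sizes differed even so: relative to GFP, Ckmt2 had 2.93 with PGC-1α where Slc25a33 had 0.52, and Ckm had -4.50 with both agents where Atp2a1 had -4.14, Mybph -5.77 and Jph2 -2.31.

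Of the 8 genes 4 had a second probe set. That of Slc6a8 (1448596_at) was as bright as the first, with 1556 and 1372 intensity units with PGC-1α plus DFO, 933 and 953 with GFP plus DFO, 1139 and 1224 with PGC-1α, and 994 and 1000 with GFP. PGC-1α plus DFO was the highest group and overlapped no other. In a fit of every probe set it rose with PGC-1α under DFO by 0.63 ± 0.12 (adjusted p = 0.0357) and with both agents against neither by 0.55 ± 0.12 (adjusted p = 0.0273), where the brightest probe set had 0.40 and 0.12 and no call on the deposited scale. Averaging the probe sets of a gene left the falls with DFO called but smaller, at -1.91 and -1.63 for Ckm and -1.66 and -1.37 for Mb in PGC-1α and GFP myotubes (adjusted p up to 0.0258). The second probe sets of Ckm (1444643_at), Ak1 (1423988_at) and Mb (1422420_at) were dim, with 62.3 to 89.1, 4.29 to 30.6 and 10.7 to 57.3 intensity units, with adjusted p of 0.129 or above in all 6 comparisons. Those of Ak1 and Mb were below the median of the array on all 8 arrays. The second probe set of Ckm did not show the fall with DFO, with 0.18 ± 0.19 in PGC-1α myotubes and 0.02 ± 0.19 in GFP myotubes (adjusted p = 0.609 and 0.971), and which part of the transcript it covers was not analysed here.

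**Figure D5:**
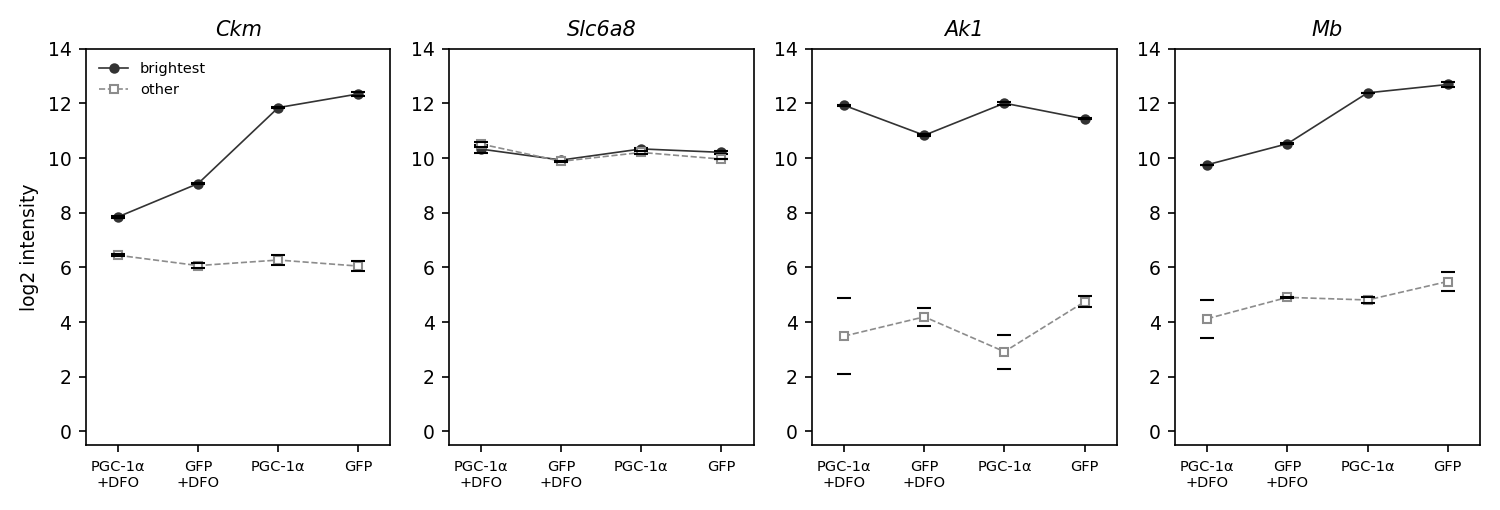
Log2 intensity (vertical axis) of the brightest probe set (filled circles) and the other probe set (open squares) of the 4 genes with more than one, as group means joined by lines, with dashes for the 2 arrays. The other probe sets of Ckm, Ak1 and Mb stay far below the brightest in every group, and the 2 probe sets of Slc6a8 lie close together.

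Array medians were nearly equal as deposited, so a difference in total RNA cannot be seen on them. Scaling each array instead to the mean of 27 probe sets for poly-A spike-in RNAs moved every change by the same amount within a comparison. The shift was 0.50 for PGC-1α under DFO, 0.21 for PGC-1α without DFO, 0.36 for DFO in PGC-1α myotubes, 0.06 for DFO in GFP myotubes, 0.57 for both against neither and 0.29 for the interaction. Whether these shifts reflect the amount of sample RNA or of spike-in RNA was not tested. Spike-in means also differed between duplicates, most with GFP plus DFO, at 8.16 and 7.91 on the log2 scale. On that scale 89.3% of the calls over all genes with PGC-1α under DFO were higher against 36.6% on the deposited scale, 85.6% against 51.0% without DFO, 76.0% against 44.6% with DFO in PGC-1α myotubes and 83.9% against 42.4% with both. Called changes of the 8 genes that moved by over 1.5 times and kept their call were 1.41 for Ckb and 1.22 for Pygm with PGC-1α under DFO, and 1.06 for Ak1, 0.98 for Ckb, -0.83 for Ckmt2 and -0.92 for Ampd1 with both, beside that of Ckm above. No called change of the 8 genes turned its direction on either scaling. With quantile normalization the changes of Ak1 and Slc6a8 with DFO in PGC-1α myotubes, neither called, were 0.00 and 0.05, and after spike-in scaling 0.28 and 0.35.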

How the data were processed

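RNA of 8 C2C12 cultures was labelled as biotinylated cRNA and measured on Affymetrix mouse arrays, per the labels' protocols. The authors deposited probe-set intensity values on a linear scale, in 1 table. The summarising and scaling of probes are not described in the sources used here. No pseudocount or filter was used before log2 transformation. Of 45101 probe sets 34945 had 1 symbol in the platform's annotation, 932 several and 9160 none, and 64 were controls. Each of 18193 genes was read from its brightest probe set.

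limma 3.58.1 in R 4.3.3 (lmFit and eBayes) fitted 1 mean per group to all 8 arrays, with 4 residual and 1.3 prior degrees of freedom, and tested 6 contrasts, two-sided, with Benjamini-Hochberg adjustment over all genes. The procedure was tested on simulated data. An exact permutation test of 2 arrays against 2 cannot go below p = 0.333, so the p-values rest on the pooled spread, and the number of arrays limits their precision. The 8 genes, the lists and the tests were chosen with earlier results of these data known. Named genes are the 8 genes, up to 4 of each pathway list and single-factor contrast with the largest called change, and 3 genes most like Ckm and Ckmt2. Alternatives were quantile normalization, spike-in scaling, probe sets averaged by gene, _x_at and _s_at probe sets left out, a floor at the 25th percentile, genes above the median level, eBayes with trend and robust options, only the groups compared, the replicate number as a block, each array left out, and, chosen after seeing the data, every probe set on its own. Promoter windows came from RefSeq (GRCm38.p6), trimmed to 250 bases before the start. Plots used matplotlib 3.10.9 with Python 3.11.15.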

Additional observations from a re-analysis of the deposited data

Results flagged for a closer look

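The change of Ckmt2 with PGC-1α differed between DFO-treated and untreated myotubes, by limma's test of the interaction itself (-1.46 ± 0.17, adjusted p = 0.04998, n = 2 arrays in each of 4 groups). Ckmt2 rose with PGC-1α in both settings, by 1.48 ± 0.12 under DFO and by 2.93 ± 0.12 without it. On each of the 4 PGC-1α arrays Ckmt2 was above both GFP arrays of the same setting. The call ended without any 1 of the 8 arrays, with the replicate number as a block, on the spike-in scale, with probe sets averaged by gene and with the _x_at and _s_at ones left out, and held with quantile normalization, a floor at the 25th percentile, genes above the median level and eBayes with trend and robust options. In limma's fit of every probe set on its own, the interaction of Ckmt2 had an adjusted p of 0.12 and was not called. Ckmt2 read 81.5 and 97.5 intensity units with GFP plus DFO, near the array medians, where signal over background limits how far a fall can be followed. The part of this limit in the interaction was not tested. Groups of 2 arrays are too small for a test of outlying arrays.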

How the results depend on the processing

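The falls of Ckm, Ckmt2, Pygm and Mb with DFO and the rises of Ckmt2 and Ckb with PGC-1α under DFO kept their direction in every alternative that used the same probe set. They also kept their call, except Ckb with PGC-1α under DFO in a fit of only the groups compared. The number of the 8 genes called with PGC-1α without DFO was 4, and 7 with trend and robust options, 2 with the mean of probe sets, 0 with only the groups compared and 2 on the spike-in scale, and 2 to 5 when arrays were left out. For the interaction it was 1, and 4 with trend and robust options or with genes above the median level, 2 with a floor, and 0 with the mean of probe sets, on the spike-in scale, leaving out _x_at and _s_at probe sets and when any array was left out. For the other 4 comparisons it stayed within 1.5 times of that reported.

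Over all genes, calls with PGC-1α without DFO numbered 1770, and 3746 with trend and robust options, 3524 among genes above the median level, 940 with the mean of probe sets, 0 with only the groups compared (where limma gave 4531 genes, 6 of the 8 among them, an unadjusted p below 0.05) and 880 on the spike-in scale, and 304 to 2094 without 1 array. With DFO in GFP myotubes they were 4409, and 2920 on the spike-in scale, and 2069 to 4695 without 1 array. With DFO in PGC-1α myotubes they were 4662, 1942 with only the groups compared, and 2637 to 4130 without 1 array. With PGC-1α under DFO they were 3446, 2213 with the mean of probe sets and 861 with only the groups compared, and 873 to 3431 without 1 array. With both against neither they were 5786, and 3046 with only the groups compared. For the interaction they were 101, 1467 with trend and robust options, 448 with a floor, 1316 among genes above the median level, 4 with the mean of probe sets, 216 with quantile normalization, 4 on the spike-in scale, 58 without _x_at and _s_at probe sets, and 0 to 77 without 1 array (2089 to 3799 at an unadjusted p below 0.05, with 3 to 6 of the 8 among them). The cause was not tested, beyond the fewer arrays or genes that some of these settings hold.

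Replicate numbers are shared between the groups. The differences of replicate 1 and 2 correlated between groups with r of -0.02 to 0.03, so this measure showed no pairing. It cannot exclude one, as most genes may differ between duplicates by noise alone. The spike-in mean was higher on replicate 1 than on replicate 2 in each group. On the log2 scale it was 7.60 and 7.47 with PGC-1α plus DFO and 8.16 and 7.91 with GFP plus DFO. Without DFO it was 7.95 and 7.82 with PGC-1α and 8.14 and 8.05 with GFP. With the replicate block the calls over all genes were 1060 with PGC-1α without DFO and 3 for the interaction, and 0 of the 8 genes were called for the interaction and 3 with PGC-1α without DFO.

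Of 80 called changes of named genes, 34 of the 79 that could be fitted ended with only the groups compared, 18 with the mean of probe sets, 17 on the spike-in scale, 7 with the replicate block, 4 without _x_at and _s_at probe sets, 1 with quantile normalization, 1 with trend and robust options and 0 with a floor.

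Changes that turned direction were not called under the alternative. Those of Ak1 with the mean of its probe sets were 0.25 with DFO in PGC-1α myotubes, -0.63 with PGC-1α without DFO and -0.38 with both (and 0.20, direction kept, with PGC-1α under DFO), and by its dim second probe set 0.57, -1.83, -1.26 and, with PGC-1α under DFO, -0.70. With quantile normalization and on the spike-in scale Ak1 had 0.0026 and 0.28 with DFO in PGC-1α myotubes and Slc6a8 0.045 and 0.35. On the spike-in scale Ampd1 had 0.39 with PGC-1α under DFO and Ckb 0.13 for the interaction. The dim second probe set of Ckm had 0.18 and 0.018 with DFO in PGC-1α and GFP myotubes, 0.38 and 0.22 with PGC-1α under and without DFO, 0.16 for the interaction and 0.40 with both. Slc6a8 with DFO in PGC-1α myotubes had 0.15 with the mean of its probe sets, 0.31 by the second, 0.15 without PGC-1α plus DFO replicate 2, 0.018 without PGC-1α replicate 2 and -0.16 to 0.15 over all arrays left out. With both against neither it had -0.038 without PGC-1α plus DFO replicate 1. Signal over background limits Ampd1, Ckmt2 with GFP plus DFO and the dim second probe sets.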
